A study of Drosophila melanogaster with 3 samples.

Results

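Yorkie (Yki) binding along the left arm of chromosome 3 (3L) was described from the 860 intervals that the deposited list places on that arm, out of 3990 in the whole list. Among the listed intervals, membership rests on the chromosome name alone; the list itself holds the depositors' calls from the same libraries. The study compared 2 chromatin immunoprecipitation (ChIP) libraries, made with an antibody against Yki, with 1 input library made without antibody. All 3 libraries came from S2, an established cell line of Drosophila melanogaster derived from embryos; no genotype or treatment is labelled, and chromatin was fixed with formaldehyde added to the culture medium. The description fields of the samples name GAF or embryo material, while the titles, antibodies and cell line fields give Yki or input in S2, and these were followed. Since the list and the density track pool the libraries, the values below carry no replicate error, and conditions could not be tested against each other.

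Yki is the transcriptional coactivator held in check by the Hippo growth-control pathway. When the kinases of that pathway are inactive, Yki enters the nucleus and raises the expression of genes for growth and for cell survival. It does not bind DNA by itself and is recruited by partners such as the TEAD-family factor Scalloped. Arm 3L carries well-known Yki targets, among them bantam, a microRNA that promotes growth, and th, which encodes the cell-death inhibitor Diap1. All positions refer to dm3. An annotation and a sequence of dm3 were not used here, and peaks are therefore given by place alone, without gene or sequence. Positions of this arm run from the telomere, at low numbers, towards the centromere.

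The 860 peaks covered 529 kb, or 2.16% of the 24.5 Mb sampled by the density track between 50269 and 24537069. Starts of the list were raised by 1, so that positions count from 1. Peak width had a median of 469 bp (95% interval of the median 445 to 491 bp, from binomial order statistics over 860 peaks), with quartiles of 314 and 729 bp. Height was taken as the highest density score sampled inside an interval. Its median was 137 (129 to 145), with quartiles of 103 and 236. If 1 ChIP tag adds 1 to this score at its centre, as was assumed, a peak of median height has a counting SD of at least 9.84. Depth per library is unknown. The intervals given here cover counting error or the spread over peaks, never the spread between libraries.

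Peaks were listed on 3L at 35.1 per Mb (exact Poisson interval 32.8 to 37.5). The values of the other large autosome arms were 39.0 per Mb on 2L (36.5 to 41.6), 37.5 on 2R (35.0 to 40.2) and 36.1 on 3R (33.9 to 38.4). Median heights were 122 on 2L, 133 on 2R and 136 on 3R, beside the 137 of 3L. A height of 300 or more was reached by 163 peaks of 3L, or 19.0% (exact binomial interval 16.4% to 21.7%), against 17.7% of the whole list. A width of 1 kb or more was reached by 106, or 12.3% (10.2% to 14.7%), against 13.3% of the whole list. These arms were set side by side without a test, and on both counts the share on 3L was near that of the list.

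Peaks were unevenly spread from telomere to centromere. In the 24 full windows of 1 Mb the number of peaks was 35.8 ± 18.01 (SD over windows), and the variance was 9.05 times the mean. Poisson intervals of peak numbers, here and above, treat peaks as independent and are too narrow where peaks cluster. The fullest windows were 3 to 4 Mb, with 80 peaks (exact Poisson interval 63.4 to 99.6), and the first Mb, with 72 (56.3 to 90.7). The window between 13 and 14 Mb held 16 peaks (9.15 to 26.0), and the one between 6 and 7 Mb held 18 (10.7 to 28.4). Further rises lay at 8 to 9 Mb with 56 peaks and at 16 to 17 and 17 to 18 Mb with 52 each.

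**Figure D1:**
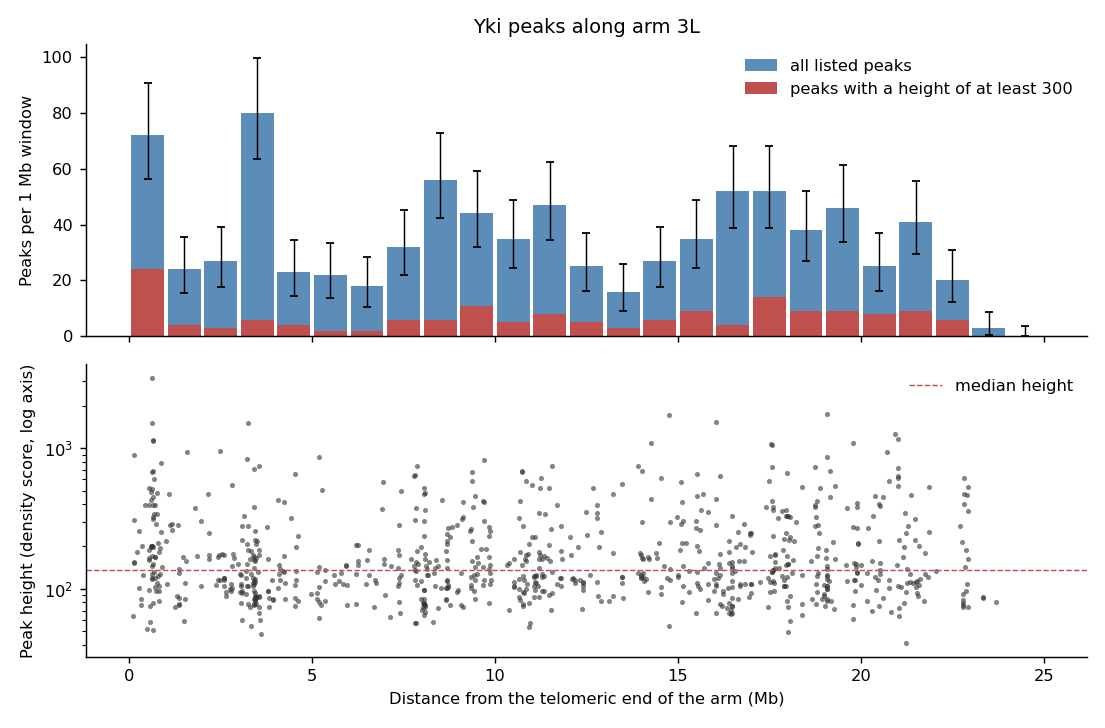
Upper panel: number of listed Yki peaks in each 1 Mb window of 3L (blue bars, exact 95% Poisson intervals) and, in red, those with a height of at least 300, against distance from the telomeric end in Mb. Lower panel: height of each of the 860 peaks on a log axis, with the median of 137 as a dashed line; the windows at 0 to 1 and 3 to 4 Mb stand highest in number, and the last 2 windows hold 3 and 0 peaks.

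The first Mb and the window from 3 to 4 Mb were alike in number but not in height. In the first Mb the median height was 185 (154 to 213, 72 peaks), and 24 of the 72 peaks (33.3%, 22.7% to 45.4%) reached 300. Between 3 and 4 Mb the median height was 109 (96.2 to 127, 80 peaks), and 6 of the 80 peaks (7.50%, 2.80% to 15.6%) reached 300. The intervals of both measures do not meet. Peaks lower than 100 made up 16.7% of the first window (8.92% to 27.3%) and 42.5% of the second (31.5% to 54.1%). The remaining 708 peaks of the arm lay between, with a median height of 137 and 18.8% at 300 or more. Part of the difference lay in the largest group of each window. Without those groups the medians were 167 (124.9 to 200.2, 47 peaks) and 108 (95.6 to 135, 49 peaks), and the intervals met. Background spread, the median absolute deviation of samples over 1 kb from any peak, was 19.98 in the first Mb and 16.2 between 3 and 4 Mb; its part in the difference was not tested.

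The telomeric side of the arm's middle, at 12.3 Mb, held 487 peaks or 39.8 per Mb (36.3 to 43.5), and the centromeric side 373 peaks or 30.5 per Mb (27.5 to 33.7). The ratio was 1.31 (exact binomial interval 1.14 to 1.498, which treats clustered peaks as independent and is too narrow). Both ends of the range of window counts entered this ratio. Without the windows from 0 and from 3 Mb, chosen because they were the fullest, the telomeric side held 32.5 peaks per Mb and the ratio was 1.07 (0.92 to 1.24); leaving them out could only lower it. Without the sparse stretch past 23 Mb the centromeric side held 34.6 peaks per Mb and the ratio was 1.15 (1.003 to 1.32). This omission, too, could only lower the ratio. With both omissions made, the telomeric side would stand at 32.5 and the centromeric side at 34.6 peaks per Mb. The higher density of the telomeric side thus rested on these stretches. Peaks on the centromeric side had a median width of 494 bp (464 to 531) and those on the telomeric side 445 bp (423 to 477), intervals that overlap. The share reaching 300 was 21.98% (17.9% to 26.5%) and 16.6% (13.4% to 20.2%), which overlap too. Over the 23 windows with at least 10 peaks, the share reaching 300 had a Spearman rho of 0.48 with position towards the centromere, given as a description. Over the same windows, the window median of height ran from 109 to 185 and had no relation to the number of peaks (Spearman rho = 0.01 across windows, a description).

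The outermost peak at each end of the arm was low. The first peak from the telomere, at 91026 to 91225, was 200 bp wide and reached 64.4, with a counting SD of at least 6.75. The second, at 128363 to 128854, reached 155 and opened a group of 4 whose highest member, at 130969 to 131976, reached 887. At the centromeric end the window from 22 to 23 Mb had 20 peaks, up to a height of 611, and 6 of them reached 300. The next window had 3 peaks, at 23331041 to 23331259, 23331891 to 23332090 and 23689404 to 23689605, with heights of 86.6, 87.1 and 80.8. No peak was listed in the last 847 kb of the track. There the background spread was 3.05, against 14.7 over the arm, and 19.97% of samples stood at 0 (within 0.001). The part of this in the lack of listed peaks was not tested.

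A small number of peaks held much of the density inside the listed peaks. The 86 highest peaks, 1 in 10, took up 22.3% of the length in peaks and 46.8% of the density in peaks. The lower 430 peaks held 12.4% of it. Heights of 500 or more were reached by 72 peaks (8.37%, 6.61% to 10.4%) and of 1000 or more by 14 (1.63%, 0.89% to 2.72%). All listed peaks together held 31.0% of the arm's density above 0.

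The highest peak, at 616311 to 617300, reached 3173 with a mean of 2018 inside the interval. It was 990 bp wide and its full width at 50% of the height was 641 bp. A lone tag, smoothed with an SD of 199 bp, would measure 468 bp by the same rule. The peak was a single narrow maximum. Its lowest sample inside, 572, lay above the height of 457 that 90% of the peaks did not exceed. It belongs to a group of 25 peaks that also holds the maxima of 1520 at 625582 to 630875, 1143 at 648478 to 649203 and 1128 at 638201 to 642798.

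Outside that group the tallest peaks differed in width and in their number of maxima. Narrow ones had 1 local maximum. The peak at 20942405 to 20943351 reached 1260.0 with a width of 560.2 bp at 50% of the height, and no other peak lay within 10 kb. Its flanks, 2 to 5 kb away, averaged -1.43 on the telomeric and -6.77 on the centromeric side. The peak at 14266975 to 14267690 reached 1084 with a width of 558 bp at 50% of the height and flanks of 1.75 and 9.19. A peak of 1548 at 16044807 to 16046284 also had 1 maximum.

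Others were wider, and most of these held several maxima in 1 interval. The peak at 19070433 to 19075245 reached 1755 and spanned 4813 bp, with 2 local maxima and a lowest sample of 80.2. At 14747890 to 14753668 the widest interval of the arm, 5779 bp, held 6 local maxima up to 1725, and its density fell no lower than 245 anywhere inside. Its flanks averaged 28.8 and -15.8, and its sole neighbour within 10 kb, at 14744273 to 14744485, reached 54.4. The peak at 3248488 to 3251813 reached 1519 over 3326 bp with 2 maxima. That at 21017694 to 21020605 reached 1157 with 2 maxima over 2912 bp. An exception among the wide ones, at 19783078 to 19785276, reached 1079.9 with 1 maximum over 2199 bp. Counting SDs of the 12 highest peaks were at least 27.6 to 47.4, so the first stood apart from the second by far more than this lower bound, while the second and the third, 1755 and 1725, did not. Of the 12, 8 lay in groups of 5 or more peaks, 3 in groups of 2 to 4, and 1 was single. Several of the 8 belong to the group of 25 peaks. Of all 860 peaks, 33.6%, 43.8% and 22.6% lay in these classes. Among the 50 highest the numbers were 25, 20 and 5.

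Width and height rose together (Spearman rho = 0.79 across 860 peaks, which share 1 smoothed track; 0.78 to 0.79 on the other large arms). A wider interval holds more samples among which the highest is taken. The relation was not strict. At 4623261 to 4626391 an interval of 3131 bp reached no more than 239, with 3 local maxima and a mean of 152. By contrast, an interval of 4084 bp with 4 maxima, at 4541392 to 4545475, reached 650.1. This was above 631, the 95th percentile of height. Widths of 2 kb or more were found in 18 peaks (2.09%, 1.25% to 3.29%) and of 4 kb or more in 5. The remaining members of the 8 widest lay in the group of 25 peaks near 0.6 Mb or are described above.

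**Figure D2:**
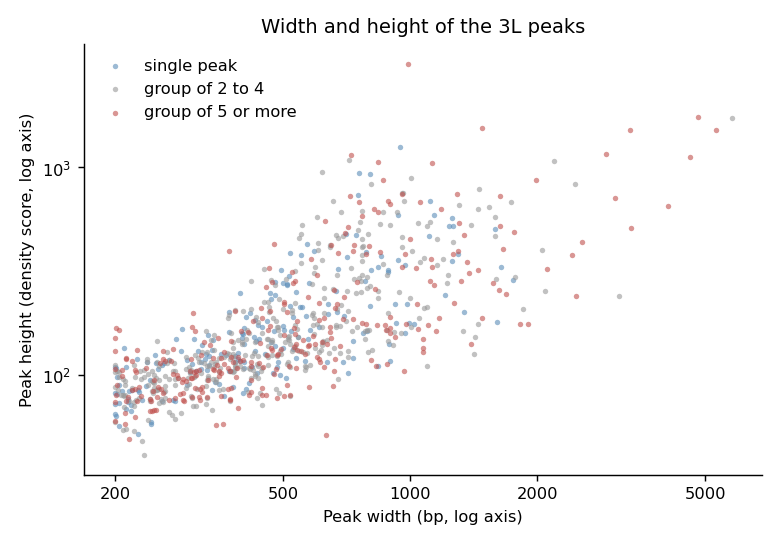
Width in bp against height as density score for the 860 peaks of 3L, both on log axes, coloured by the number of peaks chained across gaps under 10 kb. Single peaks (blue, 194), members of groups of 2 to 4 (grey, 377) and members of groups of 5 or more (red, 289) share 1 rising band; the point at 3173 is the narrow highest peak.

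Most intervals held a single summit on this track, whose smoothing with an SD of 199 bp merges maxima that lie close together. A total of 748 peaks had 1 local maximum, 29 had 2, 4 had 3 and 3 had 4 or more. In 76 intervals no sample was a local maximum. These 76 had a median width of 257 bp (242 to 278) and a median height of 88.1 (80.8 to 96.1), and 48 of them had a neighbour within 500 bp. A further 18 had none within 1 kb. At such widths an interval holds few samples. The highest sample lay a median of 18.5 bp (11 to 23.5) on the centromeric side of the interval's midpoint, less than the 100 bp between samples.

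Around the summits the Yki signal fell steeply and then levelled off above 0. Across all 860 peaks the median density was 137 at the highest sample, 61.2 and 66.6 at 500 bp on the telomeric and centromeric sides, and 36.4 and 37.8 at 1 kb. At 5 kb it was 15.3 and 15.01. For single peaks the medians were 142 at the summit, 48.7 and 48.8 at 500 bp, and 2.22 and 3.87 at 5 kb. For members of groups of 5 or more they were 137 at the summit, 74.5 and 80.2 at 500 bp, and 37.5 and 31.8 at 5 kb. Their summits were about as high as those of single peaks, and their surroundings, which hold other peaks, were higher.

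**Figure D3:**
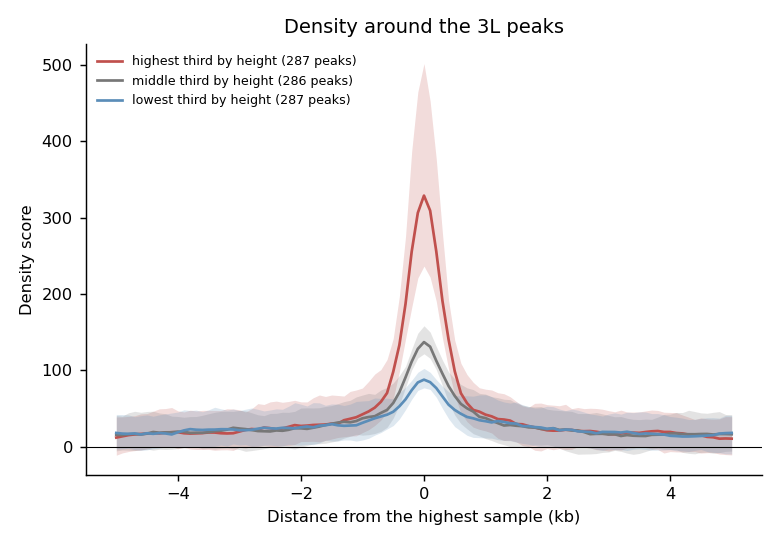
Median density score (lines) with quartiles (bands) against distance in kb from the highest sample, for the 287 highest, 286 middle and 287 lowest peaks of 3L by height. The summit medians are 329, 137 and 87.7, while the 3 curves run together from about 2 kb outwards.

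The mean density inside a peak exceeded that of its flanks, 2 to 5 kb away, in 805 of 860 peaks (93.6%, 91.8% to 95.1%), against 94.1% of the whole list. The median of peak minus flank was 109 (104.6 to 115). Flanks had a median of 17.3 (15.2 to 19.1) and were below 0 beside 196 peaks (22.8%). List and track come from the same libraries, so this is a description and no test. Of the 55 peaks that did not exceed their flanks, 50 lay in groups of 5 or more and 0 were single. Of all 860 peaks, 33.6% lay in such groups and 22.6% were single. The grouping rule itself leaves no other listed peak in the flanks of a single peak. When samples inside other listed peaks were left out of the flanks, 853 peaks (99.2%, 98.3% to 99.7%) exceeded them, against 99.4% of the whole list, and 7 did not. The farthest below their full flanks were 637551 to 638052 (a mean of 59.5 inside and 489 outside) and 19076351 to 19076925 (124 inside and 448 outside). The next 3, at 643382 to 645491, 630940 to 634278 and 613470 to 613935, lay in the group of 25 peaks. All 5 sat beside peaks of over 1000.

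Distances between neighbouring peaks spanned a wide range. The median distance between midpoints was 7744 bp (6104.5 to 9219.5, 859 pairs), with quartiles of 1872 and 29244 bp. Distances under 5 kb made up 43.5% of the pairs (40.2% to 46.9%). The values on 2L, 2R and 3R were 49.2%, 39.5% and 43.4%. Measured from edge to edge, 136 pairs (15.8%) were 500 bp or less apart, and 56 (6.52%) were over 100 kb apart. The smallest gap was 51 bp.

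**Figure D4:**
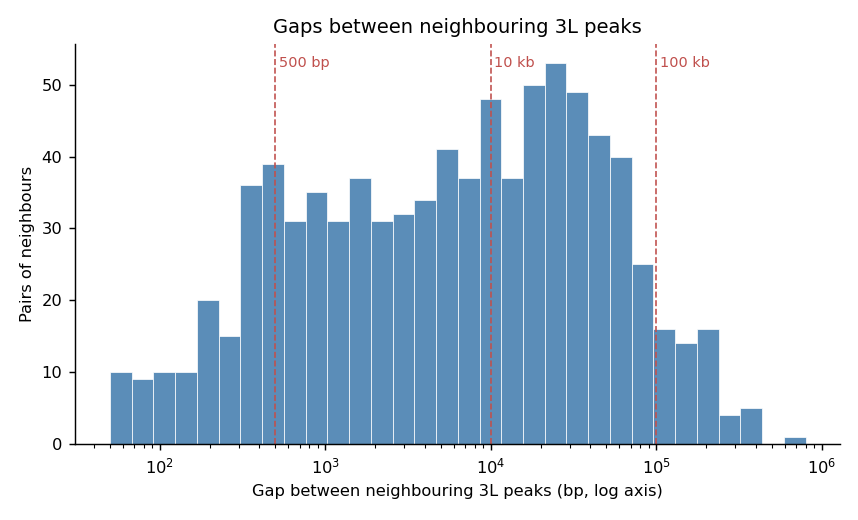
Number of neighbouring pairs of 3L peaks by the gap between their edges in bp (log axis), with dashed lines at 500 bp, 10 kb and 100 kb. Gaps of 500 bp or less number 136 of 859, and 56 exceed 100 kb.

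The density between neighbours fell with the length of the gap. Among the pairs 500 bp or less apart, 128 had at least 1 sample in the gap, and the lowest density there was a median of 90.4% of the height of the lower peak (quartiles 69.3% and 103%). In 38 of the 128 pairs the gap never fell below the height of the lower peak. For gaps of 500 to 1000 bp the median was 60.0% (78 pairs), and for gaps of 1 to 5 kb it was 4.89% (174 pairs). The density fell below 0 in 1 of the 128 gaps of up to 500 bp, in 74 of the 174 gaps of 1 to 5 kb (42.5%) and in 82 of the 95 gaps of 5 to 10 kb (86.3%). Longer gaps hold more samples, which by itself lowers their lowest value. Joining intervals 500 bp or less apart left 724 regions, of which 109 combined 2 or more intervals. The widest ran from 625582 to 635468 and measured 9887 bp. Heights of close neighbours were weakly related (Spearman rho = 0.29 over the 136 pairs, a description).

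Chaining peaks with gaps under 10 kb gave 377 groups on 3L. Single peaks numbered 194 (22.6%, 19.8% to 25.5%), and 377 peaks lay in groups of 2 to 4. The 35 groups of 5 or more held 289 peaks (33.6%, 30.5% to 36.9%) on 837 kb, or 3.42% of the arm. The 5 groups of 11 or more held 99 peaks. Heights of single and grouped peaks were close, with medians of 142 (125.2 to 159) for single peaks, 132 (126 to 147) in groups of 2 to 4 and 137 (124 to 152) in groups of 5 or more. The share reaching 300 was 16.5% (11.6% to 22.5%), 18.3% (14.5% to 22.6%) and 21.5% (16.9% to 26.6%), and these intervals overlap.

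The largest group, 31 peaks from 3374085 to 3472609, was broad and low. Its median peak height was 111, and 2 of its peaks reached 300. These lay side by side near its middle, at 3416411 to 3419472 with 710.02 and at 3419634 to 3420894 with 382, across a gap of 161 bp. The next highest, at 3431944 to 3433570, reached 257. Between the peaks the median density was 45.5. A trough of -435 lay inside the group at 3403019 to 3404819, in the gap of 7592 bp after the peak at 3400528 to 3401059. In the group of 25 peaks from 603789 to 663860 the median height was 313, 13 peaks reached 300, and 47.0% of the stretch was inside peaks, against 19.2% in the group of 31. It too held a trough, of -520, at 650319 to 651319.

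Smaller groups differed in how far 1 peak led them. In the group of 14 peaks from 19055659 to 19085988, peaks of 1755 and 871 stood among 12 others between 81.3 and 164. In the group of 18 peaks from 8047481 to 8090787, by contrast, 5 peaks reached 303 to 517, at 8049268 to 8049979 (517), 8074667 to 8075367 (483), 8056287 to 8057632 (469.6), 8088771 to 8089894 (363) and 8070230 to 8070830 (303). Its median height was 98.4, below the 111 of the group of 31, and its density fell to -47.5 at the lowest.

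Among groups of 9 peaks, the one from 18749991 to 18794714 had the highest median height, 326, and 5 of its members reached 300. Its highest peak, at 18758573 to 18759291, reached 729.5 with a width of 544 bp at 50% of the height. Another 9 peaks were packed into 11.6 kb from 16465993 to 16477553, where 53.4% of the stretch was inside peaks. Their median height was 104, and the density never fell below 11.7 between them. Heights in the group from 8668956 to 8688687 ran from 101.3 to 246, with a median density of 62.9 between peaks and a trough of -272. In the group from 9328608 to 9377252 the peaks stood farther apart, with 9.48% of its length inside peaks and a median of 11.1 between them; its tallest, at 9366508 to 9367263 and 9370306 to 9371074, reached 680.2 and 581. In the last group of 9, from 9830173 to 9857842, heights ran from 79.4 to 276, and a trough fell to -182. The group of 11 from 17982978 to 18023030 had heights from 49.1 to 669.

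Long stretches without a listed peak made up much of the arm. The 56 gaps over 100 kb added up to 10.8 Mb, or 44.2% of the sampled length. Of 245 windows of 100 kb, 61 (24.9%, 19.6% to 30.8%) held no peak, while the 24 fullest windows held 36.0% of all peaks. Gaps were taken between neighbouring peaks, so the 847 kb past the last listed peak were not counted among them. The longest gap ran 655 kb from 22065430 to 22720829. Its median density was -21.4 and 82.3% of its samples were below 0, with a highest sample of 114. If the track is ChIP less input, as its header was read, input outweighed ChIP along most of this gap.

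The next 7 gaps lay nearer to 0, with 31.4% to 64.9% of samples below it. In the 426 kb from 9892192 to 10318178 the samples below 0 were 51.0%, and the highest was 115. In the 423 kb from 13488106 to 13910774 they were 64.9%, with a median of -5.84 and a highest sample of 86.2. Nearer the centromere, the gaps of 389 kb from 22941979 and 357 kb from 23332091 had medians of 4.94 and 0.0057 and background spreads of 8.93 and 4.42. The gaps of 349.7 kb from 4626392, 295 kb from 19288314 and 283 kb from 7428700 had medians of -6.85, -1.49 and -0.25, with 63.7%, 54.8% and 54.6% of samples below 0. In all 8 the highest sample stayed between 83.2 and 143.

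How far the list and the track correspond on 3L was measured over stretches of samples at or above 50. Of 1543 such stretches, 666 touched a listed peak. The share rose with the highest density of the stretch. It was 5.98% for stretches reaching 50 to 75 (4.35% to 8.0%, 702 stretches), 34.5% for 75 to 100 (29.0% to 40.4%, 284) and 84.3% for 100 to 125 (77.0% to 90.03%, 134). It was 92.0% for 125 to 150 (80 of 87), and all 148 stretches of 300 or more touched a listed peak. Listing set in between 75 and 125 on this score, without a sharp edge. Median flanks were higher beside listed than beside unlisted stretches in every class below 150. They were 16.0 and 13.9 at 50 to 75, and 11.6 and 5.62 at 75 to 100. At 100 to 125 they were 7.47 and -13.7, and at 125 to 150 they were 10.6 and 10.1. At 150 to 200 they were 13.2 and 44.6, the latter from 2 stretches. At 200 to 300 they were 10.5 and 0.11, the latter from 1 stretch. These differences were not tested. Stretches the same distance below 0 numbered 995 at 50 to 75, 465 at 75 to 100, 252 at 100 to 125 and 6 at 300 or more.

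**Figure D5:**
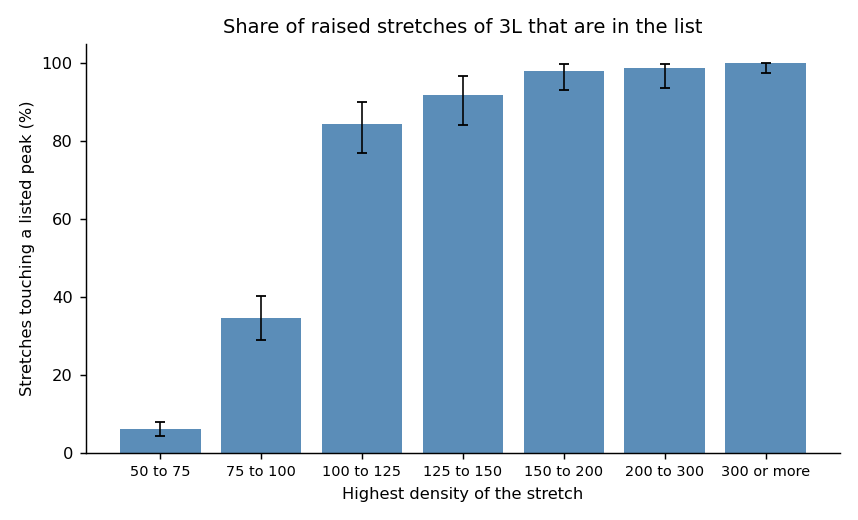
Percentage of raised stretches of 3L that touch a listed peak, by the highest density score of the stretch, with exact 95% binomial intervals. The share is 5.98% at 50 to 75, 34.5% at 75 to 100, 84.3% at 100 to 125 and 100% at 300 or more.

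Some peaks were listed at heights where most stretches were not, and 3 did not reach the 50 at which stretches were counted. The 5 lowest reached 40.9 at 21224182 to 21224415, 48.1 at 3589261 to 3589492, 49.1 at 18002625 to 18002840, 50.9 at 659568 to 660201 and 51.8 at 498190 to 498416. Their widths ran from 216 to 634 bp. In all, 205 peaks of 3L (23.8%) were lower than 100.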

How the data were processed

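ChIP and input DNA of S2 cells was tagmented with a Nextera kit, gel-selected and run on a HiSeq2000, per the labels' protocols. The submitters' processing notes list CASAVA 1.7.0, BWA, Bowtie and dm3, with no steps assigned to them. For the peak caller, no name is given in the sources used here. Deposited by the authors were an interval list without heights and a density score every 100 bp that the file header calls smoothed and background-subtracted. The header combines 2 library codes and 1 input code, none found in the labels. They were read as the libraries of this series, with both ChIP libraries pooled and input subtracted. Groups follow the sample titles.

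Over the whole track, isolated bumps of at most 17 samples had a most frequent sum of 4.98 above 0 (1156 of 3503 within 2%) and 1.80 below 0 (894 of 1646). A Gaussian of height 1 and SD 199 bp has the first sum. It was taken as 1 ChIP tag, which makes 1 input tag 0.36 deep. At uniform coverage the counting variance is then at least the height divided by the square root of 2, and PCR duplicates would add to it.

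Samples were assigned to peaks by their centres. Calculations used Python 3.11.15, numpy 2.4.6, pandas 2.3.3, scipy 1.17.1 and matplotlib 3.10.9, and were tested on simulated data. Named were the 12 highest and 8 widest peaks, the 8 groups with most peaks (all 5 tied groups of 9 included), the 8 longest gaps, the 2 peaks at each end, and the 5 lowest and the 5 farthest below their flanks. The group near 0.6 Mb and those near 16 and 18 Mb were kept short. Members, lists and measures were chosen with earlier results of these data known. The contrast of the first Mb with 3 to 4 Mb, the local maxima, the densities in gaps and the share of stretches listed were chosen after the values were seen.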

Additional observations from a re-analysis of the deposited data

How the results depend on the processing

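Of 33 alternative settings, 15 left a value inside its interval or, for a count, within 1.5 times, and 18 moved it. Direction could turn only for the ratio of the sides, peak minus flank and the rank correlation, and it turned in none of these. Leaving out the windows from 0 and from 3 Mb together with the stretch past 23 Mb was not among the settings. Joining intervals across 500 bp gave 29.6 peaks per Mb, a median width of 527 bp, a median height of 145, 32.0% of neighbours under 5 kb apart and 22.4% of regions in groups of 5 or more. With only peaks at least 100 high the median width was 554 bp, neighbours under 5 kb 37.9% and the rank correlation of width and height 0.70; with mean in place of highest density the median was 121 and the correlation 0.74. Peaks above their flanks were 96.4% with flanks 5 to 10 kb away and 99.2% with other peaks left out; height less the highest flank sample had a median of 50.7. Groups of 5 or more held 19.8% of peaks when chained at 5 kb and 51.4% at 20 kb. Density above 0 inside peaks was 42.8% with peaks widened by 500 bp and 33.3% with every overlapping sample, which can only raise it. The ratio of the telomeric to the centromeric side was 1.07 without the windows from 0 and from 3 Mb and 1.15 without the stretch past 23 Mb, settings chosen after seeing the data, as was placing samples at the start of their record, which left the median height at 137 and 93.5% of peaks above their flanks. The cause of the remaining changes was not tested. Runs without 1 ChIP library were not made. No paired analysis was possible because list and track hold no value of a single library. With the depth of each library unknown, detection limits cannot be stated.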

Other observations

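Raised density on 3L was not confined to the listed peaks. Past the last listed peak, a stretch at 24432719 to 24433519 reached 204, the highest of any stretch of 3L that touched no listed peak, with flanks of 0.11 and the nearest listed peak 743 kb away. The next, at 16030119 to 16031419 and 8671919 to 8674319, reached 164 and 161, with the nearest listed peaks 6.43 and 2.82 kb away. Of the samples of the arm at or above the median peak height, 3051 of 3339 (91.4%) lay inside listed peaks.

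A separate scaffold of 3L heterochromatin, sampled over 2545 kb, held 1 listed peak, at 2398590 to 2398950, with a height of 86.3 and flanks of 5.71. Its highest sample was 172 and 26.3% of its samples stood at 0 (within 0.001).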
